A study of Mus musculus with 12 samples.

Results

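The killer lectin-like receptors (Klr) are cell-surface proteins, best known from natural killer (NK) cells, whose genes are named *Klra* to *Klrk*. Members were chosen by gene symbol alone, as every entry of the count table named *Klr*, a letter from a to k and a digit. That gave 30 genes, pseudogenes included, of 55421 in the table. Their RNA was sequenced from OT-I cells, which are CD8 T cells with 1 transgenic receptor for an ovalbumin peptide, and which were Rroid2 knockout (KO) or Rroid2 wild type (WT). These cells were placed in host mice by adoptive transfer. The hosts were infected with *Listeria monocytogenes* engineered to make ovalbumin (LM-OVA), and the OT-I cells were sorted from their spleens. There were 12 libraries in 6 groups of 2: KO and WT memory precursor effector cells (MPEC) on day 14, KO and WT short-lived effector cells (SLEC) on day 14, and KO and WT SLEC on day 7 after infection. All groups share the OT-I receptor, the transfer and the infection. By convention SLEC are sorted as high and MPEC as low for the KLRG1 protein. None of the sources used here gives the gates, the KO allele, the host strain or whether the 2 libraries of a group came from separate animals. P-values therefore measure only the spread between libraries, which may be technical. No gene of the table bears the symbol Rroid2, so the loss of its RNA could not be read.

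Each subfamily of these receptors has a known place in NK and CD8 T cell biology. The *Klra* genes encode the Ly49 receptors of the mouse, most of which recognise classical MHC class I molecules and inhibit the cell through a tyrosine motif in their tail. A few Ly49 receptors have no such motif and activate the cell through the adaptor DAP12, the product of *Tyrobp*. *Klrd1* (CD94) pairs with *Klrc1* (NKG2A), an inhibitory receptor, or with *Klrc2* (NKG2C) or *Klrc3* (NKG2E), its activating relatives, and the pair reads the class Ib molecule Qa-1. *Klrk1* (NKG2D) is an activating receptor for stress-induced ligands, *Klrg1* an inhibitory receptor for cadherins and the standard marker of terminal effector CD8 T cells. *Klre1* pairs with *Klri1* or *Klri2*, and *Klrb1c* encodes NK1.1, the antigen by which NK cells are gated in many strains.

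All 30 members lie on chromosome 6 (GRCm38). The 28 other than *Klrg1* and *Klrg2* lie between 128609227 and 131247362, the NK gene complex. It holds 14 *Klra* genes, of which 3 are annotated as pseudogenes. Most arose by duplication, so their sequences are close, and that bears on how far a count can be tied to 1 gene. The first 75 coding bases of 6 Ly49 genes are shown for this reason, from GENCODE transcripts, with capitals where a gene differs from *Klra9*.
Klra9: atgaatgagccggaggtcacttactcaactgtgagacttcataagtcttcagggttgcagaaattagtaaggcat
Klra3: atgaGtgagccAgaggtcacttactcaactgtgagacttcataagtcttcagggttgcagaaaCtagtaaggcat
Klra10: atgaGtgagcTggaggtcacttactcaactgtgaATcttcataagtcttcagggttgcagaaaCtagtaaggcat
Klra7: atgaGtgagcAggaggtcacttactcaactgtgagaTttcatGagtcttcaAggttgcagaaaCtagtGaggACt
Klra4: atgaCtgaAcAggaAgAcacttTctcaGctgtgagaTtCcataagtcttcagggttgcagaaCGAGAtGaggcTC
Klra8: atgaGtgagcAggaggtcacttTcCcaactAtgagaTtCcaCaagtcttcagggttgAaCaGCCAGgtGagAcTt
*Klra3* (Ly49C) differed from *Klra9* (Ly49I) at 3 of these bases, and its whole coding sequence was 95.9% identical. *Klra10* (Ly49J) was 96.9% identical, while *Klra7* (Ly49G) and *Klra4* (Ly49D) were each 76.7% identical. The substitution A23T, counted from the first base of the start codon, lies in codon 8, which in inhibitory Ly49 receptors encodes the tyrosine of the inhibitory motif. Of 11 *Klra* coding sequences, 2 carried it, *Klra4* and *Klra8* (Ly49H), both known as activating, DAP12-dependent receptors.

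These likenesses set a limit on the values that follow. Of all 50-base windows in the annotated transcripts, 68.5% of those of *Klra9* occur in no other gene, as do 79.3% of those of *Klra3*, 60.2% of *Klra10*, 66.9% of *Klra8* and 95.3% of *Klra4*. *Klra13-ps* (86.3%) shares its other windows with *Klra7*, and *Klra14-ps* (74.4%) shares most of them with *Klra8*. *Klrc1* had 61.4% and *Klrc3* 63.7% of windows of its own, and both share most of the rest with *Klrc2*. All windows of *Klrg1*, *Klrd1* and *Klrk1* were their own. No source used here says how reads that match several of these genes were counted, so levels of single *Klra* and *Klrc* genes are uncertain. These shares do not bound the error, since a low gene may share windows with a far higher one. *Klra10* shares 21.4% of its windows with *Klra9*, and *Klrc2* shares 12.4% with *Klrc1*.

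Total counts per library ran from 7603551 to 14026594, and the 30 members together took 0.0553% to 0.157% of them. Levels are given as CPM, counts per 1000000 counts of the library after scaling of the library sizes. A gene entered the tests where enough libraries held it above a minimum count, and 18 members of 14460 genes did. The 12 members left out stayed at 1.25 CPM or below in every library. *Klrb1* had 0 counts in all 12 libraries, and *Klrg2* had 2 counts in all. Among the 12 were *Klra1* (Ly49A), *Klra2* (Ly49B), *Klra5* (Ly49E), *Klra6* (Ly49F) and *Klra17* (Ly49Q). None of the 8 tested *Klra* genes reached 1 CPM in both libraries of an MPEC group, so all of them entered through SLEC. *Klra7* and *Klra10* entered through WT SLEC on day 14 alone, and *Klra8*, *Klra13-ps* and *Klri2* through SLEC of day 14 in both genotypes. Such genes had to differ from groups in which they were low, so in those comparisons their p-values and the number that passed are a description only.

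The libraries were checked for the labelled cells and for others. The 4 CD8 T cell markers *Cd3e*, *Cd8a*, *Cd8b1* and *Trac* summed to 2780 to 3960 CPM, and *Cd4* was at 1.06 CPM or below. *Ncr1*, the defining receptor of NK cells, was at 0 in every library outside WT SLEC on day 14, where it averaged 0.137 ± 0.0147 CPM (SD, n = 2). The 5 NK markers other than *Klrb1c* (*Ncr1*, *Tyrobp*, *Fcer1g*, *Fcgr3* and *Itga2*) summed to 5.05 and 9.89 CPM in KO SLEC on day 14. The sums were 19.3 and 11.0 CPM in WT SLEC on day 14 and 5.74 to 25.0 CPM elsewhere. On day 7 *Itga2* alone, at 11.3 to 22.2 CPM, made up most of each sum. *Tyrobp* was at 5.81 and 3.16 CPM in WT SLEC on day 14, against at most 2.20 CPM elsewhere. *Fcer1g* was at 4.93 and 2.40 CPM in that group, against at most 3.12 CPM elsewhere. *Fcgr3* was at 1.69 and 0.63 CPM in that group, against at most 0.97 CPM elsewhere. The WT SLEC libraries of day 14 stood apart for RNA of other cells. Their 11 B cell markers summed to 361 and 1380 CPM, against 19.2 to 229 CPM in the rest. None of the 11 was at 0 there, against up to 6 in single libraries elsewhere. None was at 0 either in WT MPEC replicate 1, KO SLEC day 7 replicate 1 and WT SLEC day 7 replicate 2. Monocyte and macrophage markers summed to 55.1 and 42.0 CPM there, against at most 28.9 CPM elsewhere. Neutrophil markers summed to 70.1 and 7.32 CPM there, against at most 7.62 CPM elsewhere. Plasmacytoid dendritic cell markers reached 102 CPM there and at most 46.9 CPM elsewhere, with *Siglech* and *Cox6a2* at 0 in all libraries. The 3 gamma delta T cell markers in the table summed to 46.5 to 109 CPM over all libraries, and *Zbtb16* of NKT cells was at most at 3.98 CPM.

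Per kilobase of exon, the levels of the members in WT SLEC on day 14 spanned the family widely. *Klrc1* was highest at 207 CPM per kb, followed by *Klrg1* and then by *Klrd1* at 92.6 CPM per kb. *Klra14-ps* (53.5), *Klra9* (44.5), *Klrk1* (41.0), *Klre1* (34.5), *Klrb1c* (29.0) and *Klra13-ps* (21.4 CPM per kb) followed. *Klra3* was at 12.5, *Klra4* at 10.7, *Klrc3* at 8.88, *Klra8* at 6.28 and *Klra10* at 5.28 CPM per kb. So the NKG2A, KLRG1 and CD94 genes led, and in this group the strongest Ly49 signals came from 1 annotated pseudogene and *Klra9*.

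MPEC were set against SLEC of the same day to see which receptors separate the populations. The *Klra* genes were almost silent in MPEC and present in SLEC, in both genotypes. Their summed level was 0.923 and 0.383 CPM in KO MPEC, against 50.9 and 51.1 CPM in KO SLEC on day 14. In WT cells it was 1.74 and 1.69 CPM in MPEC, against 219 and 150 CPM in SLEC. MPEC and SLEC libraries did not overlap in either genotype. In bulk RNA, fewer cells with a receptor and less of its RNA per cell cannot be told apart, and Ly49 genes are known to be switched on in only some cells of a population.

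**Figure D1:**
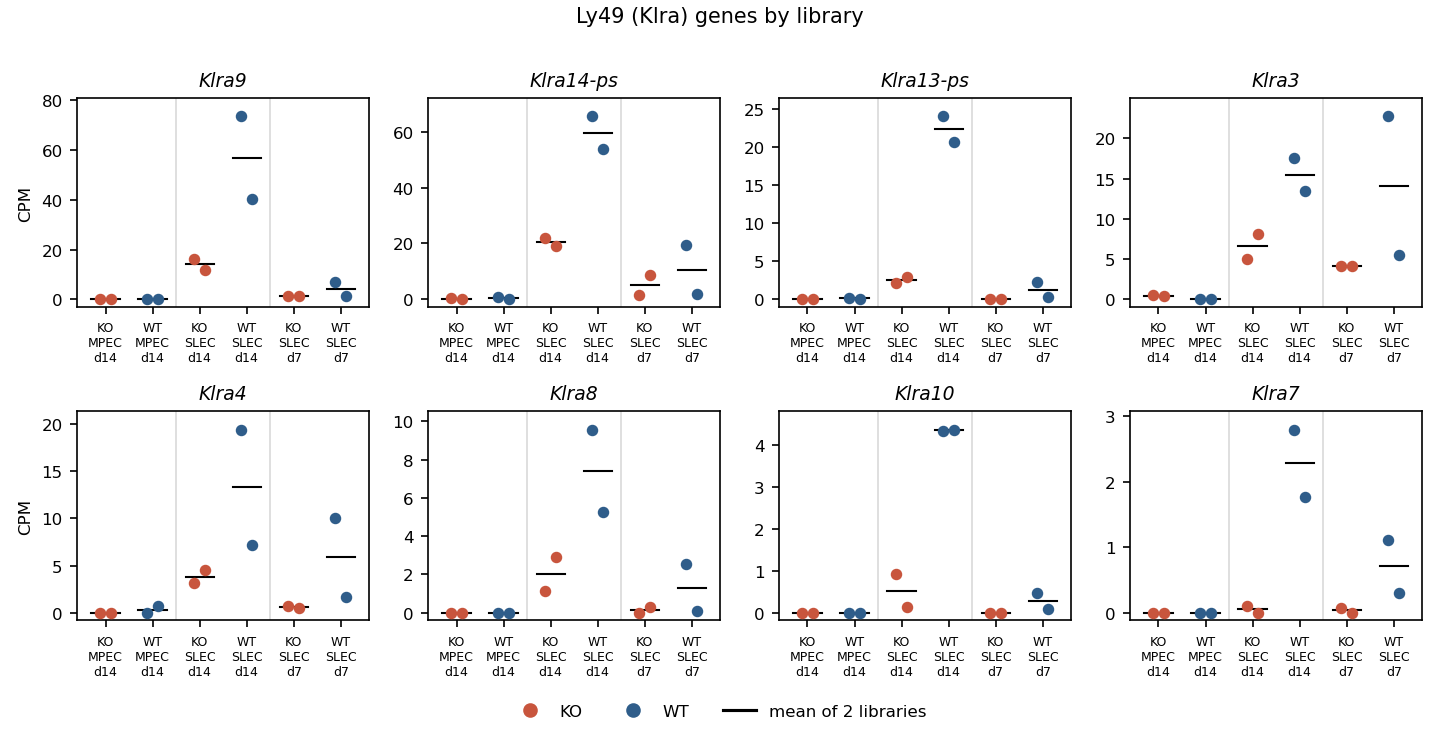
Levels of the 8 tested *Klra* (Ly49) genes in CPM, 1 panel per gene with its own linear scale, 1 point per library, KO in red and WT in blue, and a bar at the mean of 2 libraries. The 4 MPEC libraries lie at or near 0 in every panel, and WT SLEC on day 14 has the highest mean in every panel, for example 56.9 CPM for *Klra9*.

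*Klra9* had 0 counts in both KO MPEC libraries, against 16.3 and 11.8 CPM in KO SLEC on day 14, which makes it at least 96.8-fold lower in MPEC (floor of 3 counts over the group). In WT MPEC it had 2 counts in all, against 73.4 and 40.4 CPM in WT SLEC. That is a ratio of 0.0015 with a 95% counting interval of 0.000182 to 0.00544. *Klra9* was lower in MPEC in both genotypes by edgeR's quasi-likelihood test (Benjamini-Hochberg adjusted p = 0.0019 in KO and 1.80e-05 in WT). *Klra3*, the other well-read class I receptor, was at 0.51 and 0.38 CPM in KO MPEC, against 5.05 and 8.10 CPM in KO SLEC (log2 fold change -3.81 ± 1.07 SE, adjusted p = 0.0498). In WT MPEC it had 1 count, against 17.5 and 13.5 CPM in WT SLEC, a ratio of 0.00273 (counting interval 6.89e-05 to 0.0153; adjusted p = 4.49e-04). *Klra13-ps* was at 0 in KO MPEC, against 2.12 and 2.88 CPM in KO SLEC, and so at least 16.5-fold lower (adjusted p = 0.032). In WT it was at 0.23 and 0.09 CPM in MPEC, against 24.0 and 20.6 CPM in SLEC (-6.96 ± 0.66, adjusted p = 2.81e-06). *Klra14-ps* was at 0.41 and 0 CPM in KO MPEC, against 22.1 and 19.1 CPM in KO SLEC (-6.63 ± 1.63, adjusted p = 0.045). In WT MPEC it was at 0.91 and 0 CPM, against 65.4 and 53.7 CPM in WT SLEC (-6.86 ± 1.11, adjusted p = 0.0048). The activating *Klra8* had 0 counts in all MPEC libraries and was at least 57.6-fold lower in WT MPEC (adjusted p = 0.0026). In KO MPEC it was at least 12.5-fold lower, and its test did not pass (adjusted p = 0.17). *Klra4*, the other activating receptor, was at 0 and 0.66 CPM in WT MPEC, against 19.4 and 7.20 CPM in WT SLEC (-5.43 ± 1.12, adjusted p = 0.010). In KO MPEC it had 0 counts, against 64 in KO SLEC, at least 25.1-fold lower (adjusted p = 0.17). *Klra7* and *Klra10* had 0 counts in all MPEC libraries, and were at least 17.8-fold and 34.6-fold lower in WT MPEC. As they entered the tests through WT SLEC on day 14 alone, no p is given for them here.

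*Klrc1*, *Klrd1* and *Klrk1*, in contrast, were at 65.6 CPM or more in every MPEC library. *Klrc1* was at 166 and 221 CPM in KO MPEC, against 403 and 391 CPM in KO SLEC on day 14. In WT it was at 202 and 235 CPM in MPEC, against 429 and 394 CPM in SLEC. It fell by 1.03 ± 0.21 in KO MPEC (adjusted p = 0.0075) and by 0.91 ± 0.21 in WT MPEC (adjusted p = 0.013) on the log2 scale, so its RNA stayed abundant. *Klrd1*, its partner, did not pass the test, at 77.8 and 65.6 CPM in KO MPEC against 86.6 and 65.6 CPM in KO SLEC. In WT it was at 90.2 and 76.4 CPM in MPEC against 109 and 129 CPM in SLEC. Its log2 difference was -0.09 in KO cells (95% interval -0.51 to 0.32) and -0.51 in WT cells (-0.90 to -0.12). *Klrk1* did not pass either, at 266 and 278 CPM in KO MPEC against 350 and 243 CPM in KO SLEC, and at 263 and 244 CPM in WT MPEC against 298 and 291 CPM in WT SLEC. Its log2 difference was -0.13 (-0.49 to 0.24) in KO and -0.22 (-0.58 to 0.14) in WT cells. *Klrc3* was at 1.13 and 0.77 CPM in KO MPEC, against 3.34 and 5.90 CPM in KO SLEC, and did not pass (-2.23 ± 0.68, adjusted p = 0.067). It passed in WT MPEC (2.19 and 1.51 CPM, against 6.32 and 6.75 CPM in WT SLEC; -1.80 ± 0.47, adjusted p = 0.025). *Klrc2*, at 19.4 and 9.87 CPM in KO MPEC against 33.7 and 26.1 CPM in KO SLEC, and at 15.5 and 16.0 CPM in WT MPEC against 25.6 and 31.1 CPM in WT SLEC, did not pass (adjusted p = 0.23 and 0.25).

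**Figure D2:**
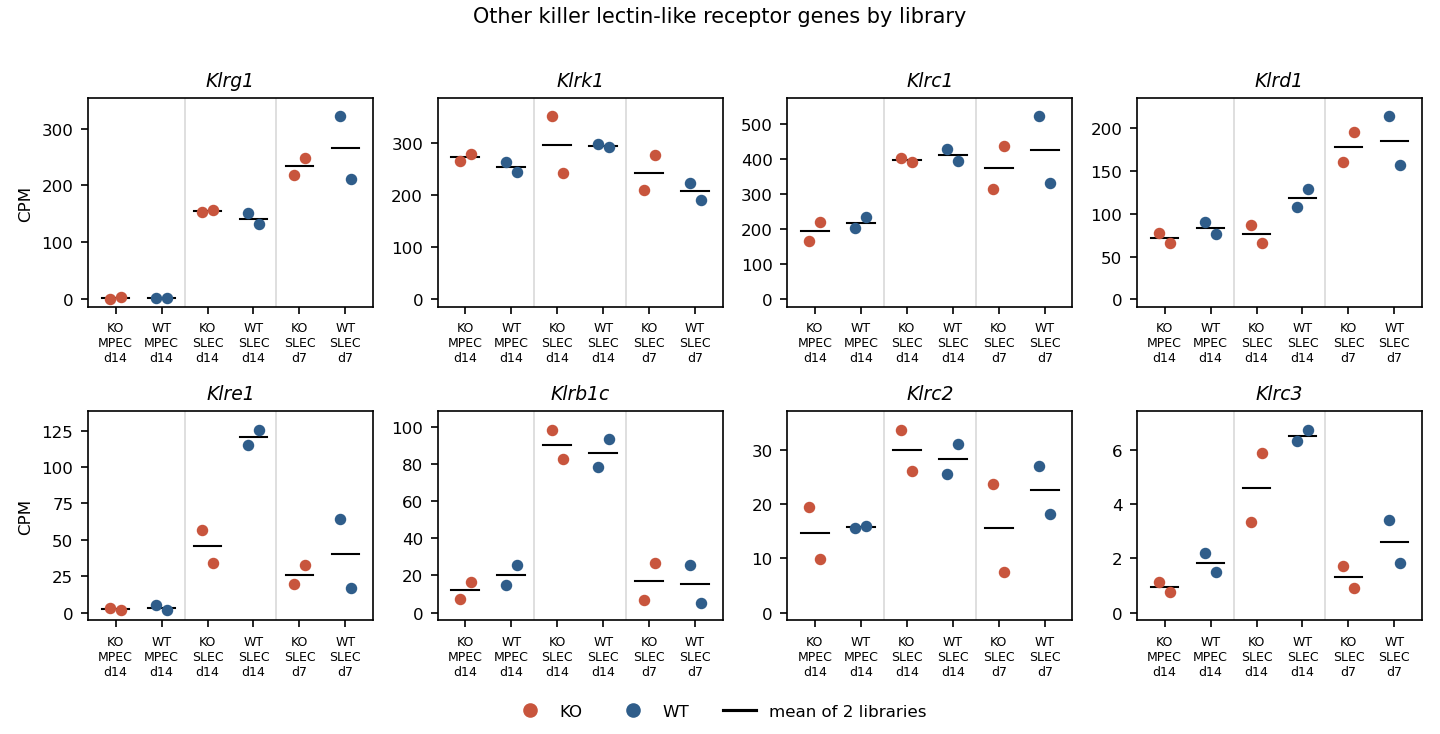
Levels in CPM of 8 members outside the *Klra* genes, 1 panel per gene with its own linear scale, 1 point per library, KO in red and WT in blue, and a bar at the mean of 2 libraries. *Klrg1* and *Klre1* are near 0 in MPEC, while *Klrk1* lies between 191 and 350 CPM in all 12 libraries.

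*Klre1*, which lies next to *Klrd1* on the chromosome, was low in MPEC. It was at 3.18 and 1.82 CPM in KO MPEC, against 57.0 and 34.2 CPM in KO SLEC on day 14 (-4.21 ± 0.91, adjusted p = 0.045). In WT it was at 5.06 and 1.60 CPM in MPEC, against 115 and 126 CPM in SLEC (-5.11 ± 0.78, adjusted p = 0.0087). Its partner gene *Klri2* stayed between 0 and 4.26 CPM in all libraries, and *Klri1* was not tested. *Klrb1c* was at 7.49 and 16.7 CPM in KO MPEC, against 98.4 and 82.5 CPM in KO SLEC. In WT it was at 15.1 and 25.8 CPM in MPEC, against 78.5 and 93.2 CPM in SLEC. The libraries did not overlap, but the spread of this gene was wide and its tests did not pass (adjusted p = 0.12 in KO and 0.16 in WT cells). *Klrb1c* overlaps *Gm44511* on the same strand, and 83.0% of its 50-base windows occur in no other gene. *Klrb1f*, a gene of the same NKR-P1 group that overlaps genes of the opposite strand, lay between 2.33 and 5.57 CPM in all libraries. *Klrg1* follows the conventional sort and was not tested here. It was at 1.33 and 3.74 CPM in KO MPEC against 154 and 157 CPM in KO SLEC on day 14. The WT values were 1.81 and 2.54 CPM in MPEC against 152 and 132 CPM in SLEC.

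In all, 6 members without *Klrg1* were lower in KO MPEC than in KO SLEC, where 5.11% of all genes were called, 2.21% as lower and 2.9% as higher. In WT cells 11 were lower, where 7.96% were called, 4.3% as lower and 3.66% as higher. Every tested *Klra* gene is among the 11, and all of them entered the tests through SLEC. *Klra7* and *Klra10* did so through WT SLEC on day 14 alone. Both counts are therefore a description only. The 6 of the KO comparison were *Klra3*, *Klra9*, *Klra13-ps*, *Klra14-ps*, *Klre1* and *Klrc1*, and all are among the 11 of the WT comparison. No member was higher in MPEC. Calls depended on the libraries in the fit. With *Klra9* kept each time, the KO count was 1 without KO MPEC replicate 1 or either KO SLEC day 14 library. It was 2 without KO MPEC replicate 2 or either WT MPEC library, and 3 without either WT SLEC day 14 library. The WT count was 5 (*Klra3*, *Klra8*, *Klra9*, *Klra10* and *Klra13-ps*) without either WT MPEC library. A model with a term for B cell RNA called 1 member in KO cells, *Klra9*.

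SLEC of day 14 were set against SLEC of day 7 to follow the receptors as the response contracts. *Klra9* was higher on day 14, while *Klrd1* and *Klrg1* were lower, in both genotypes. *Klra13-ps* was higher too in both. It and *Klra8* entered the tests through SLEC of day 14, so their p-values between days are a description only. The summed *Klra* level was 50.9 and 51.1 CPM on day 14 in KO SLEC, against 9.43 and 15.8 CPM on day 7. In WT SLEC it was 219 and 150 CPM on day 14, against 66.6 and 11.8 CPM on day 7. The days did not overlap. The WT libraries of day 7 were far apart, and replicate 1 was above replicate 2 for each of the 8 tested *Klra* genes, by 3.63 to 33.1 times.

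*Klra9* was at 16.3 and 11.8 CPM on day 14 in KO SLEC, against 1.19 and 1.22 CPM on day 7 (3.55 ± 0.70, adjusted p = 0.0038). In WT SLEC it was at 73.4 and 40.4 CPM on day 14, against 6.83 and 1.23 CPM on day 7 (3.83 ± 0.46, adjusted p = 2.12e-04). *Klra13-ps* was at 2.12 and 2.88 CPM on day 14 in KO SLEC, against 0 counts on day 7, and so at least 19.0-fold higher (adjusted p = 0.011). WT SLEC had 24.0 and 20.6 CPM on day 14, against 2.22 and 0.31 CPM on day 7 (4.14 ± 0.45, adjusted p = 2.88e-05). Its day 14 and day 7 libraries were wide apart in both genotypes. *Klra10*, which entered the tests through WT SLEC on day 14 alone, was at 4.34 and 4.36 CPM on day 14 in WT SLEC, against 0.48 and 0.08 CPM on day 7. *Klra8* (9.56 and 5.24 CPM, against 2.54 and 0.08 CPM) rose in WT SLEC by 2.49 ± 0.66 (adjusted p = 0.025). *Klra14-ps* rose by 2.50 ± 0.66 in WT SLEC (adjusted p = 0.041), at 65.4 and 53.7 CPM on day 14 against 19.4 and 1.84 CPM on day 7. In KO SLEC it was at 22.1 and 19.1 CPM on day 14, against 1.49 and 8.56 CPM on day 7, and did not pass (adjusted p = 0.12). *Klra3* did not pass the test between days. In KO SLEC it was at 5.05 and 8.10 CPM on day 14, against 4.16 and 4.18 CPM on day 7 (0.62 ± 0.65, adjusted p = 0.55). WT SLEC had 17.5 and 13.5 CPM on day 14, against 22.7 and 5.52 CPM on day 7 (0.14 ± 0.42, adjusted p = 0.89). The 95% interval of the WT difference was -0.75 to 1.02.

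The shares of *Klra3* and *Klra9* in the Ly49 counts, a description chosen after the values were seen, differed between the days. *Klra3* took 9.92% (95% Wilson interval 7.61% to 12.8%) and 15.9% (12.5% to 19.9%) of all *Klra* counts in KO SLEC on day 14, and 8.0% (7.08% to 9.03%) and 9.02% (7.93% to 10.2%) in WT SLEC on day 14. On day 7 it took 44.1% (35.8% to 52.8%) and 26.5% (20.1% to 33.9%) in KO SLEC, and 34.1% (31.0% to 37.4%) and 46.8% (39.0% to 54.6%) in WT SLEC. *Klra9* went the other way, with 31.9% and 23.1% in KO SLEC and 33.6% and 27% in WT SLEC on day 14, against 12.6% and 7.74% in KO SLEC and 10.3% and 10.4% in WT SLEC on day 7. The share of *Klra14-ps*, the most read Ly49 gene in several libraries, overlapped between the days, with 29.9% to 43.5% on day 14 and 15.6% to 54.2% on day 7. For *Klra3* and *Klra9* the 4 libraries of day 14 and the 4 of day 7 did not overlap. For these 2 genes KO and WT libraries overlapped within each day, except that *Klra3* took a larger share in both KO libraries than in both WT libraries on day 14. Shares of some other *Klra* genes were also separated by genotype on day 14. *Klra14-ps* took 43.5% and 37.4% in KO, against 29.9% and 35.9% in WT. *Klra13-ps* took 4.17% and 5.65% in KO, against 11.0% and 13.7% in WT. These shares come from 127 to 2976 *Klra* counts per library, and the intervals cover counting error only.

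**Figure D3:**
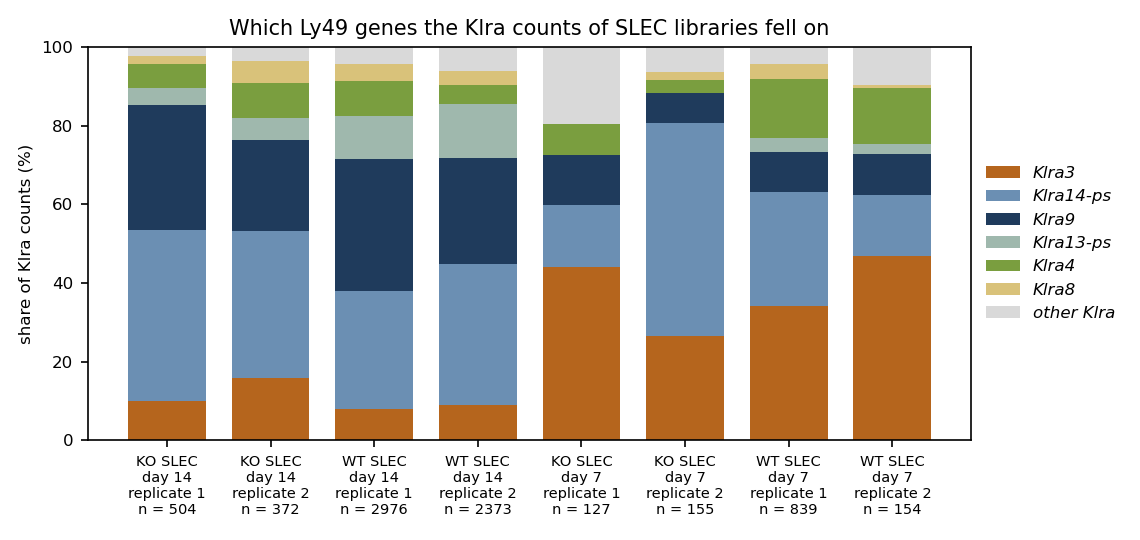
Share (%) of all *Klra* counts that fell on each Ly49 gene, 1 stacked bar per SLEC library, with the number of *Klra* counts under each bar. *Klra3* takes 8.0% to 15.9% in the 4 libraries of day 14 and 26.5% to 46.8% in the 4 of day 7.

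The promoters of *Klra9* and *Klra3*, 2 genes of nearly the same coding sequence of which *Klra9* passed the test between days, are shown to compare them. Each is the RefSeq window (GRCm38.p6) of 250 bases before to 50 after the annotated start, chr6:130193063-130193362 for *Klra9* and chr6:130337577-130337876 for *Klra3*, both on the minus strand, with capitals where they differ in an alignment.
Klra9: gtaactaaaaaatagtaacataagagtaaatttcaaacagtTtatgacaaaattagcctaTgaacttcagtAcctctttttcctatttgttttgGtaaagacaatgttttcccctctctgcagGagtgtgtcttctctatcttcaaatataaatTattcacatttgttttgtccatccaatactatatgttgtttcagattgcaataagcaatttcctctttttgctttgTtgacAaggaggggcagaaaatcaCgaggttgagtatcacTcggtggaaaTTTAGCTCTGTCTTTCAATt
Klra3: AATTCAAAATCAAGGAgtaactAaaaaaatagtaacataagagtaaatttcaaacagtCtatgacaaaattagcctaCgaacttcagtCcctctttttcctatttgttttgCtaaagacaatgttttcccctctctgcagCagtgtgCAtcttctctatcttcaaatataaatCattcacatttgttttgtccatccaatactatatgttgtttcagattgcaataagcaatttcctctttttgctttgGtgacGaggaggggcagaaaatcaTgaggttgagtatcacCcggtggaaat
The windows were 85% identical. The runs of capitals at the end of the *Klra9* window and at the beginning of the *Klra3* window come from the offset between the 2 annotated starts. RefSeq windows were found for 23 members, 11 of them *Klra* genes. On either strand, GGTGTG (the T-box core) was found in 2 of the 11 *Klra* windows and in 19.0% of all 27025 windows. TGTGGT (the RUNX core) was found in 1 of the 11 and in 16.9% of all, and CTTTGA (the TCF/LEF core) in 2 and in 16.2%. The E-box CANNTG was found in 10 of the 11 and in 72.1% of all. These are matches of letters and not binding sites.

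Among the other members, *Klrd1* was at 86.6 and 65.6 CPM on day 14 in KO SLEC, against 161 and 195 CPM on day 7, and fell by 1.22 ± 0.19 (adjusted p = 3.65e-04). In WT SLEC it was at 109 and 129 CPM on day 14, against 214 and 157 CPM on day 7, and fell by 0.64 ± 0.18 (adjusted p = 0.031). *Klrc1*, which shares CD94 as its partner, did not pass the test, with a difference of 0.08 (95% interval -0.36 to 0.52) in KO and -0.05 (-0.48 to 0.39) in WT SLEC on the log2 scale. Per kilobase, *Klrc1* was 3.0 and 3.85 times *Klrd1* in KO SLEC on day 14, against 1.26 and 1.44 times on day 7. In WT SLEC it was 2.55 and 1.98 times on day 14, against 1.57 and 1.36 times on day 7, and day 14 lay above day 7 in each genotype. *Klrg1* fell by 0.59 ± 0.19 in KO SLEC (154 and 157 CPM on day 14, against 219 and 249 CPM on day 7, adjusted p = 0.046). The fall in WT SLEC was 0.91 ± 0.19 (152 and 132 CPM, against 321 and 212 CPM, adjusted p = 0.0058). SLEC are by convention sorted on this protein, so a change of the RNA and an effect of the gate cannot be told apart here. *Klrb1c* was at 98.4 and 82.5 CPM on day 14 in KO SLEC, against 7.06 and 26.7 CPM on day 7. WT SLEC had 78.5 and 93.2 CPM on day 14, against 25.7 and 5.06 CPM on day 7. The days did not overlap, and the log2 differences of 2.49 ± 0.77 and 2.49 ± 0.75 did not pass (adjusted p = 0.072 and 0.093). *Klrc3* did not pass either (adjusted p = 0.060 and 0.061), nor did *Klre1*, *Klrk1* or *Klrc2*.

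In all, 4 members changed between the days in KO SLEC, 2 of them higher on day 14 (*Klra9* and *Klra13-ps*), where 17.2% of all genes were called, 7.7% as higher and 9.5% as lower. In WT SLEC 7 were called, 5 of them higher with *Klra8*, *Klra10* and *Klra13-ps* included, where 9.94% were called, 4.69% as higher and 5.25% as lower. As *Klra8*, *Klra10* and *Klra13-ps* entered the tests through SLEC of day 14, the counts of higher members are a description only. The KO share is close to the background. The median log2 difference of the 18 members was 1.16 in KO and 1.45 in WT SLEC, against -0.01 and 0.01 over all genes. These medians are a description only as well, since the 18 include genes that entered through SLEC of day 14 and genes that share sequence. Without KO SLEC day 7 replicate 1 the KO calls were *Klrd1* and *Klrc2*, and without KO SLEC day 14 replicate 2 they were *Klrd1* and *Klra9*, 2 each time. *Klrg1* in KO SLEC passed in 4 of 12 such omissions, as did *Klra14-ps* in WT SLEC. The WT count was 4 without either WT SLEC day 14 library, and 11 without WT SLEC day 7 replicate 1, when *Klra3* was among them. With only the groups compared in the fit 2 members were called in WT SLEC and 7 in KO SLEC. With a term for B cell RNA 3 were called in WT SLEC, where 173 of all 14460 genes were called, against 1437 without the term. The RNA of other cells was high in WT SLEC on day 14, and its part in the WT day difference was not tested beyond that term. B cell markers summed to 47.4 and 21.1 CPM on day 14 in KO SLEC, against 42.7 and 53.2 CPM on day 7.

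KO cells were set against WT cells in each population, the comparison the study was made for. In SLEC on day 14, *Klra9* and *Klra13-ps* of the Ly49 genes were lower in KO cells, while the NKG2A, NKG2D, KLRG1 and NK1.1 genes did not pass the test. The summed *Klra* level was 50.9 and 51.1 CPM in KO, against 219 and 150 CPM in WT. Each of the 8 tested *Klra* genes was lower in both KO libraries than in both WT libraries. The share of all genes separated in this way was not counted, and with 2 libraries a group such separation can arise by chance. As most of the tested *Klra* genes share stretches of sequence, they are not independent observations, and their separation is a description only. Of 18 tested members 2 passed the test, *Klra13-ps* and *Klra9*, both lower in KO, where 0.539% of all genes were called, 0.47% as lower and 0.0692% as higher.

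*Klra13-ps* (ENSMUSG00000030178.15, 130290878 to 130306428, minus strand) is a transcribed pseudogene of the Ly49 cluster. It was at 2.12 and 2.88 CPM in KO SLEC on day 14, against 24.0 and 20.6 CPM in WT SLEC, and fell by 3.18 ± 0.44 (log2, SE; adjusted p = 0.0036). *Klra9* (ENSMUSG00000033024.16, 130178675 to 130193112, minus strand) was at 16.3 and 11.8 CPM in KO, against 73.4 and 40.4 CPM in WT, and fell by 1.99 ± 0.40 (adjusted p = 0.044). The libraries of both genes were well separated by genotype. *Klra10* was at 0.91 and 0.14 CPM in KO, against 4.34 and 4.36 CPM in WT (-2.88 ± 0.75). *Klra7* had 1 count in KO, against 2.79 and 1.77 CPM in WT, a ratio of 0.026 with a counting interval of 0.000648 to 0.15. *Klra8* was at 1.11 and 2.88 CPM in KO, against 9.56 and 5.24 CPM in WT (-1.96 ± 0.69, adjusted p = 0.22). *Klra4*, the other activating receptor, was at 3.13 and 4.53 CPM in KO, against 19.4 and 7.20 CPM in WT (-1.80 ± 0.73, adjusted p = 0.32). *Klra14-ps* was at 22.1 and 19.1 CPM in KO, against 65.4 and 53.7 CPM in WT (-1.52 ± 0.64, adjusted p = 0.36). *Klra3* was at 5.05 and 8.10 CPM in KO, against 17.5 and 13.5 CPM in WT (-1.27 ± 0.51, adjusted p = 0.31). These 8 genes, inhibitory and activating, had values on the same side of WT, which is a description only, for the reasons given above. *Klra7* and *Klra10* entered the tests through WT SLEC on day 14 alone, so no p is given for them here, and neither passed. Of the untested members, *Klra1* had 0 counts in KO against 23 in WT, at least 4.47-fold lower, and *Klra2* had 1 count against 26. *Klra5* went the other way, with 10 counts in KO against 3 in WT, a ratio of 5.71 with a counting interval of 1.47 to 32.3, and its libraries overlapped.

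**Figure D4:**
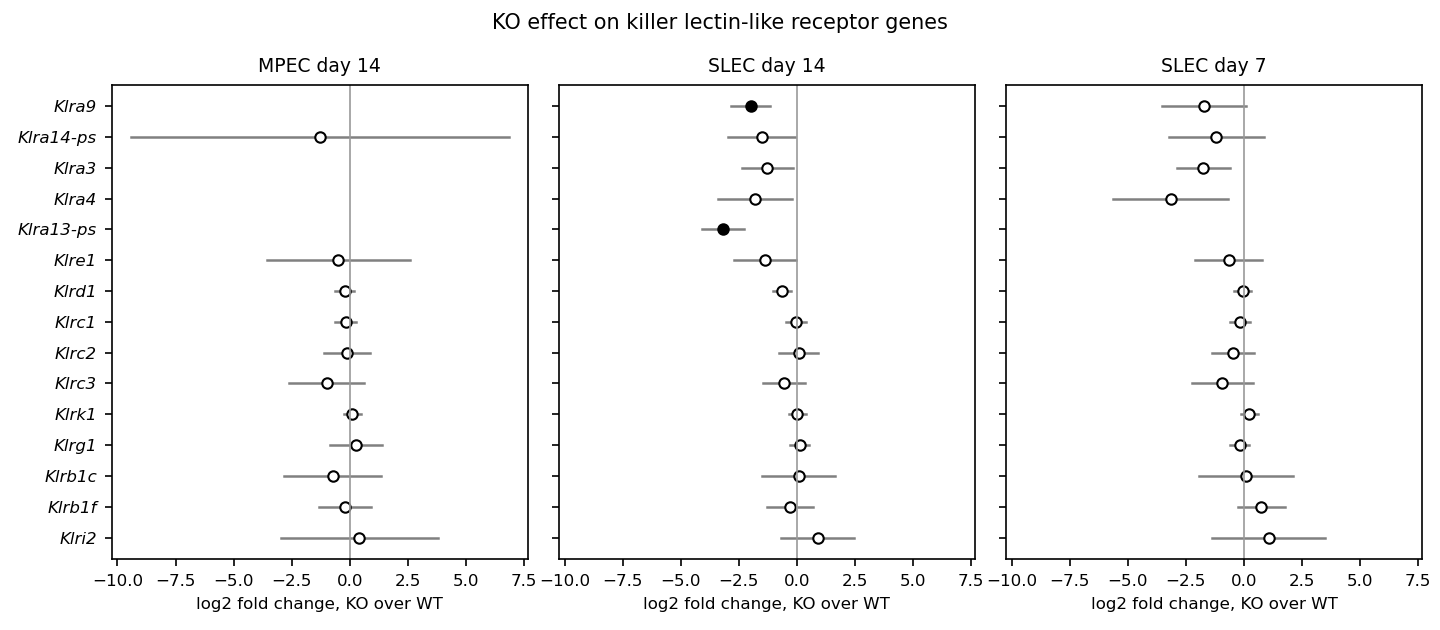
Log2 fold change of KO over WT with its 95% interval for tested members with more than 3 counts in both groups, 1 panel per population on a linear axis. *Klra7*, *Klra8* and *Klra10* are not drawn. Filled points passed the test: *Klra9* (-1.99) and *Klra13-ps* (-3.18) in SLEC on day 14. No point is filled in MPEC or in SLEC on day 7.

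Outside the Ly49 genes, *Klrd1* and *Klre1* had lower values in KO SLEC on day 14 and did not pass. *Klrd1* was at 86.6 and 65.6 CPM in KO, against 109 and 129 CPM in WT (-0.64 ± 0.19, adjusted p = 0.13). *Klre1* was at 57.0 and 34.2 CPM in KO, against 115 and 126 CPM in WT (-1.39 ± 0.57, adjusted p = 0.39). Both genes had their 2 KO libraries below their 2 WT libraries. *Klrg1* differed by 0.13 (95% interval -0.28 to 0.54), *Klrc1* by -0.05 (-0.49 to 0.39) and *Klrk1* by 0.01 (-0.35 to 0.37) on the log2 scale, so the largest fall within the interval is 0.49. *Klrb1c*, at 98.4 and 82.5 CPM in KO against 78.5 and 93.2 CPM in WT, differed by 0.08 with a wide interval of -1.49 to 1.64. The 18 members had a median log2 difference of -0.95, against -0.02 over all genes. This median is a description only, as the 18 include genes that share stretches of sequence. They also include *Klra7* and *Klra10*, which entered the tests through WT SLEC on day 14 alone.

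The KO effect on day 14 stands on libraries that also differ in RNA of other cells. B cell markers summed to 47.4 and 21.1 CPM in KO SLEC on day 14, against 361 and 1380 CPM in WT SLEC, and monocyte and macrophage markers to 11.4 and 6.73 CPM, against 55.1 and 42.0 CPM. With a term for B cell RNA no member was called (*Klra13-ps* -4.04 ± 0.94, adjusted p = 0.42, and *Klra9* -3.82 ± 0.81, adjusted p = 0.22). With this term 5 of all 14460 genes were called, against 78 without it, so the loss of calls was not particular to the members. The term is highest in WT SLEC on day 14, so the term and this group can hardly be told apart. Of the defining NK cell gene *Ncr1*, KO libraries had 0 and WT libraries 0.137 CPM. Of the other NK markers, *Tyrobp* was at 2.02 and 2.20 CPM in KO, against 5.81 and 3.16 CPM in WT. *Fcer1g* was at 1.01 and 0.27 CPM in KO, against 4.93 and 2.40 CPM in WT. *Fcgr3* was at 0.10 and 0 CPM in KO, against 1.69 and 0.63 CPM in WT. *Itga2* overlapped, at 1.92 and 7.41 CPM in KO and 6.69 and 4.73 CPM in WT. Beyond the B cell term, the part of RNA of other cells in the result was not tested. Leaving out libraries moved the count of 2 to between 0 and 4. It was 0 without either KO SLEC day 14 library (*Klra13-ps* adjusted p = 0.058 and 0.062). It was 1, *Klra13-ps*, without WT SLEC day 14 replicate 1, either KO SLEC day 7 library or any MPEC library. It was 4 without either WT SLEC day 7 library, when *Klra14-ps* and *Klre1* joined. *Klra9* had an adjusted p of 0.0021 to 0.54 over these omissions, and DESeq2 called *Klra13-ps* alone. With only the groups compared in the fit, *Klra9* did not pass (adjusted p = 0.060), and *Klra13-ps*, *Klra14-ps* and *Klre1* were called.

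In SLEC on day 7 no member passed edgeR's or DESeq2's test, where 0.0277% of all genes were called by edgeR. By edgeR, 3 of 18 members had an unadjusted p under 0.05, as did 488 of all 14460 genes. The 8 tested Ly49 genes had lower means in KO, but WT replicate 2 lay near the KO libraries. The summed *Klra* level was 9.43 and 15.8 CPM in KO, against 66.6 and 11.8 CPM in WT, so the groups overlapped. *Klra3* was at 4.16 and 4.18 CPM in KO, against 22.7 and 5.52 CPM in WT (-1.75 ± 0.53, adjusted p = 1.00). *Klra4* was at 0.74 and 0.51 CPM in KO, against 10.1 and 1.69 CPM in WT (-3.16 ± 1.13, adjusted p = 1.00). *Klra13-ps* had 0 counts in KO against 32 in WT, at least 9.68-fold lower. Without WT SLEC day 7 replicate 2, 2 members were called, *Klra3* and *Klra4*. *Klre1* was at 19.5 and 32.7 CPM in KO, against 64.2 and 16.9 CPM in WT, and overlapped. *Klrk1* (0.23, -0.14 to 0.59), *Klrc1* (-0.18, -0.62 to 0.25), *Klrd1* (-0.06, -0.44 to 0.32) and *Klrg1* (-0.19, -0.59 to 0.21) had log2 differences within these 95% intervals.

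In MPEC no member passed either tool's test, where 0.0138% of all genes were called by edgeR. No member had an unadjusted p under 0.05 by edgeR, against 355 of all 14460 genes. The *Klra* genes had 9 and 4 counts in KO MPEC, against 23 and 18 in WT MPEC, too few to compare one by one. *Klrk1* differed by 0.10 (95% interval -0.26 to 0.47), *Klrc1* by -0.17 (-0.62 to 0.28) and *Klrd1* by -0.22 (-0.62 to 0.19). As the mean of the 3 populations, edgeR called no member (0.083% of all genes called) and DESeq2 called 2, *Klra4* and *Klra13-ps*. By edgeR, 3 members had an unadjusted p under 0.05 for this mean, as did 1195 of all 14460 genes.

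Whether the KO effect differed between days or populations was tested as an interaction. No member passed for the day change in SLEC (0.00692% of all genes called). An unadjusted p under 0.05 was found for 1 member, *Klrd1*, and for 951 of all 14460 genes. The log2 difference of *Klrd1* was -0.58 ± 0.26 (adjusted p = 0.75). No member passed for the MPEC difference (0% called). For it no member had an unadjusted p under 0.05, against 612 of all 14460 genes. DESeq2 called no member in either interaction. The KO effect on *Klra9* was -1.99 ± 0.40 on day 14 and -1.72 ± 0.85 on day 7, and the difference was -0.27 ± 1.05 (adjusted p = 0.98). The 95% interval of this difference was -2.52 to 1.98.

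Genes that work with these receptors were read from lists of signalling partners, ligands, neighbours in the NK gene complex, transcription factors and other NK receptors. Of 15 tested partners, 1 was called between KO and WT in SLEC on day 14, *Plcg2*, where 0.539% of all genes were called. None was called in the other populations. *Plcg2*, a phospholipase also strongly expressed by B cells, averaged 20.3 ± 5.27 CPM in KO and 58.7 ± 24.9 CPM in WT (-1.56 ± 0.32, adjusted p = 0.044). *Tyrobp*, the adaptor of the activating Ly49 receptors, was low throughout. It averaged 0.0479 ± 0.0677 CPM in KO MPEC and 0.330 ± 0.0671 CPM in WT MPEC. In SLEC on day 14 it averaged 2.11 ± 0.124 CPM in KO and 4.48 ± 1.88 CPM in WT, and on day 7 it averaged 0.301 ± 0.00622 CPM in KO and 0.231 ± 0.215 CPM in WT (SD, n = 2). It was higher on day 14 than on day 7 in KO (2.76 ± 0.91, adjusted p = 0.040) and in WT SLEC (4.17 ± 0.72, adjusted p = 8.87e-04), while KO against WT on day 14 did not pass (-1.07 ± 0.50, adjusted p = 0.38). *Tyrobp* is also expressed by myeloid and NK cells, and the share of its counts that OT-I cells gave was not tested. *Hcst*, the adaptor of NKG2D, lay at group means of 33.7 to 41.8 CPM and passed no test. *Sh2d1a*, the SLAM adaptor SAP, was lower on day 14 than on day 7 in KO (-1.35 ± 0.25, adjusted p = 0.0015) and WT SLEC (-0.84 ± 0.24, adjusted p = 0.034). *Ptpn6*, the phosphatase SHP-1 that inhibitory receptors recruit, was lower in WT MPEC than in WT SLEC (-0.65 ± 0.18, adjusted p = 0.030).

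Of 10 tested ligands none was called between KO and WT. *Ulbp1* (MULT1), a ligand of NKG2D, was lower on day 14 than on day 7 in KO (-2.22 ± 0.35, adjusted p = 3.52e-04) and in WT SLEC (-1.87 ± 0.31, adjusted p = 8.87e-04). *Cdh1* (E-cadherin), a ligand of KLRG1, was at 7.09 ± 0.132 CPM in KO MPEC against 0.275 ± 0.388 CPM in KO SLEC on day 14, and was higher in MPEC (4.86 ± 0.90, adjusted p = 0.0032). In WT it was at 5.99 ± 0.045 CPM in MPEC and at 0 counts in SLEC on day 14 (adjusted p = 4.29e-04). *Clec2d* was lower on day 14 than on day 7 in KO SLEC (-1.16 ± 0.26, adjusted p = 0.0083), and *H2-Q7* was lower in WT MPEC than in WT SLEC (-0.56 ± 0.16, adjusted p = 0.038). *H2-T23*, the Qa-1 gene read by NKG2A, lay at group means of 95 to 116 CPM.

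Of 8 tested genes of other families in the NK gene complex none was called between KO and WT in any population. *Styk1* was at 1.46 ± 0.0674 CPM in KO SLEC on day 14, against 5.12 ± 0.073 CPM in WT SLEC (-1.81 ± 0.53, adjusted p = 0.12), and in WT it was lower in MPEC than in SLEC (-3.01 ± 0.58, adjusted p = 0.0033). *Clec12a*, a myeloid lectin gene, was higher on day 14 than on day 7 in WT SLEC (4.02 ± 1.15, adjusted p = 0.029), beside the monocyte markers given above. *Gabarapl1* was lower in KO MPEC than in KO SLEC (-1.71 ± 0.46, adjusted p = 0.037).

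Of 15 tested transcription factors none was called between KO and WT. Between MPEC and SLEC, 4 were lower in MPEC in both genotypes, *Zeb2*, *Prdm1*, *Tbx21* and *Bhlhe40*. Of all genes, 2.21% were called lower in KO and 4.3% in WT cells. *Zeb2* and *Tbx21* (T-bet) are known to act in terminal effector and NK cell maturation. *Zeb2* differed by -3.85 ± 0.25 in KO (adjusted p = 4.42e-07) and by -3.21 ± 0.24 in WT (adjusted p = 1.60e-06), *Prdm1* (Blimp-1) by -1.96 ± 0.19 and -1.60 ± 0.18. *Id3* was higher in MPEC (5.57 ± 0.98, adjusted p = 0.0012 in KO; 2.35 ± 0.64, adjusted p = 0.026 in WT). *Bach2* was higher on day 14 than on day 7 in KO (1.94 ± 0.24, adjusted p = 6.02e-05) and WT SLEC (1.61 ± 0.22, adjusted p = 2.13e-04). Between these days 6 of the 15 were called higher in KO SLEC, *Zeb2* among them, where 7.7% of all genes were called higher. *Id2* was called lower there, as were 9.5% of all genes. In WT SLEC *Bach2* alone was called, where 9.94% of all genes were called. Of 12 other NK receptor genes tested none was called between KO and WT. *Itgam* (CD11b), also a myeloid gene, was lower in MPEC (-3.52 ± 0.33 in KO and -3.50 ± 0.27 in WT, adjusted p = 3.50e-06 and 1.87e-07). *Crtam* (1.98 ± 0.21 and 2.25 ± 0.20) and *Slamf6* (2.22 ± 0.26 and 2.19 ± 0.25) were higher in MPEC. *Itga2* was lower on day 14 than on day 7 (-2.17 ± 0.46, adjusted p = 0.0035 in KO; -1.56 ± 0.39, adjusted p = 0.016 in WT).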

How the data were processed

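Whole-number raw read counts per gene were deposited by the authors. Per the submitters' processing notes, bcl2fastq and STAR 2.6.1a were used with GRCm38. No source used here gives the counting program, its annotation or its use of strand, so reads of overlapping antisense genes may be included. Columns were matched to groups through the labels, and no library was left out. In R 4.3.3, edgeR 4.0.16 kept 14460 genes (filterByExpr over 6 groups), scaled libraries by TMM (0.862 to 1.15) and fitted 1 coefficient per group (6 residual, median 11.9 prior degrees of freedom). The quasi-likelihood tests were two-sided, with Benjamini-Hochberg adjustment over all genes in each of 10 comparisons and a threshold of 0.05. The fit was checked on simulated counts. Alternatives were DESeq2 1.42.0, RLE scaling, no filter, only the groups compared, a replicate block, a B cell term and omission of each library. Values in every library are given for members called in a comparison or at 10 CPM or more in a group, and up to 4 called genes per list are named by smallest adjusted p. *Tbx21*, *Bhlhe40*, *Hcst* and *H2-T23* were added after their values were seen. The members and lists were chosen with earlier results of these data known. Of the listed genes, *Raet1a*, *Raet1b*, *Raet1c*, *H60a*, *Csda*, *Trgc1* and *Trgc2* had no match in the table. Positions and transcripts came from GENCODE M21, and promoters from RefSeq. Intervals from counts and the floor of 3 counts cover counting error only, since reads are not independent molecules.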

Additional observations from a re-analysis of the deposited data

How the results depend on the processing

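None of the 30 calls between groups turned direction under the alternatives run, and RLE scaling moved no count of called members. The direction of members that were not called was not followed. Of these calls, 10 passed with each library left out in turn. Counts of called members that moved by over 1.5 times, and those with a library left out, were as follows. KO against WT in SLEC on day 14 (2) became 1 under DESeq2, 8 without the filter on low counts and 0 with the B cell term, and 0 to 4 with a library left out. KO against WT in SLEC on day 7 (0) became 2 without the filter and 0 to 2 with a library left out. The mean KO effect (0) became 2 under DESeq2. Day 14 against day 7 in KO SLEC (4) became 7 under DESeq2 and 7 with only the groups compared, and 2 to 6 with a library left out. In WT SLEC (7) it became 2 with only the groups compared and 3 with the B cell term, and 4 to 11 with a library left out. MPEC against SLEC in KO cells (6) became 10 with only the groups compared and 1 with the B cell term, and 1 to 9 with a library left out. In WT cells (11) it ran from 5 to 12 with a library left out, and was 9 under DESeq2, 9 with the B cell term, 13 without the filter and 14 with only the groups compared. The cause was not tested.

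Over 15 pairs of groups, deviations of same-numbered libraries from their group means had correlations of -0.133 to 0.117, with 2 pairs over 0.1. These values cannot tell whether same-numbered libraries came from the same animal. With a replicate block the counts were 0 and 2 for KO against WT in SLEC on day 7 and day 14, 0 in MPEC, 3 and 7 for the day difference in KO and WT SLEC, and 7 and 11 for MPEC against SLEC in KO and WT cells. Without both WT SLEC day 14 libraries, an alternative chosen after seeing the data, 3 members were called for the day difference in KO SLEC, 4 for MPEC against SLEC in KO cells and 0 for KO against WT in MPEC and in SLEC on day 7. With 4 to 23 *Klra* counts a library in MPEC, single Ly49 genes could not be compared between KO and WT there.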
